A study of Homo sapiens with 15 samples.

Results

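Aminoacyl-tRNA synthetases are the enzymes that load each tRNA with its amino acid before translation. The genes described here are protein-coding genes whose current symbol is a single-letter amino acid code followed by ARS, with or without a final 1 or 2, together with EPRS1, which charges both glutamate and proline tRNAs, the phenylalanine enzyme subunits FARSA and FARSB, and the scaffold proteins AIMP1 and AIMP2. The rule found 39 genes among the 31352 gene identifiers of the deposited table. Of these, 18 encode cytosolic enzymes or subunits, 17 encode mitochondrial enzymes, 2 (GARS1 for glycine and KARS1 for lysine) serve both compartments, and 2 are the scaffold proteins. No measured value entered the rule.

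Both compartments translate with their own tRNAs, and the mitochondrial synthetases are encoded in the nucleus and imported. Several cytosolic enzymes are held together with AIMP1, AIMP2 and EEF1E1 in the multisynthetase complex, whereas others work as free homodimers or, for phenylalanine, as a tetramer of FARSA and FARSB. When amino acids run short, the transcription factor ATF4 is known to raise a subset of the cytosolic synthetase genes through short promoter elements that it binds with C/EBP partners.

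The series measured polyadenylated RNA in 15 libraries of a human cell line, 3 in each of 5 groups. EV is an isogenic empty vector control. In NICD1 to NICD4, doxycycline switches on the intracellular domain of the NOTCH receptor with the same number, which is the fragment that enters the nucleus when a receptor is activated. The labels name HCT116, a colorectal carcinoma line, while the sample descriptions and column names carry U373, the name of a glioma line. The library titled NICD4 replicate 1 has NICD3 in other label fields and was kept with its title. Dose and time of doxycycline, whether EV received it, whether a line is 1 clone and whether replicates are separate cultures are not given in the sources used here, so p-values measure the spread between these libraries, which may be technical.

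Libraries held 11630195 to 27704492 counted reads. Levels are given as scaled CPM, counts relative to library size after scaling by the trimmed mean of M values (TMM). The TMM factors were 1.21 to 1.32 in EV and 0.793 to 1.09 in the NICD libraries, so EV stood apart from all 12 others before any gene was considered. Reads counted to the receptor genes did not mark the groups: NOTCH4 stood at 1.81, 2.22 and 1.95 CPM in NICD4 and at 0.646 to 2.73 CPM in the other 12 libraries, and NOTCH1 and NOTCH3 overlapped in the same way. NOTCH2 was at 40.2 to 42.8 CPM in NICD2 and at up to 40.6 CPM elsewhere. The labels were therefore not checked by the receptors. Of 8 colorectal epithelial markers, EPCAM, KRT8, KRT18 and CDX2 were above 10 CPM in every library, CDH1 was at 3.54 to 16.4 CPM, KRT20 at 0.267 to 1.65 CPM and VIL1 at 0.189 to 1.72 CPM, and CEACAM5 was at 0 in 12. Of 10 glioma and astrocyte markers, CD44 (30.7 to 119 CPM), NES (19.9 to 45.7 CPM) and SLC1A3 (10.8 to 56.7 CPM) were above 10 CPM in every library. BCAN was at 2.15 to 11.5 CPM, GFAP at 0.888 to 6.87 CPM, PTPRZ1 and S100B at up to 0.46 and 0.268 CPM, and AQP4 and OLIG2 were at 0 in 14 libraries. The summed epithelial markers were higher in every NICD library (7523 to 20330 CPM) than in EV (1479 to 1853 CPM), mostly through KRT8 and KRT18. The summed glioma and astrocyte markers were at 117.2 to 120.8 CPM in EV and 108.8 to 170.1 CPM in the NICD libraries. VIM, the mesenchymal filament gene of the same list, had a mean of 21.71 CPM in EV. Its means were 0.6256, 1.845, 2.195 and 1.058 CPM in NICD1 to NICD4, with changes of -5.08, -3.53, -3.27 and -4.42. Whether the line was HCT116 or U373 was not tested. The part of these markers in the results was not tested.

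Each change below is a log2 difference ± SE from a limma fit of all 15 libraries (n = 3 a group), and a gene is said to rise or fall where the p adjusted over all 15122 tested genes is under 0.05. All 39 genes were tested, with 30 to 10013 reads a gene and library. The 4 comparisons share the EV libraries and are not independent. The GC content of transcripts moved with the calls: genes called up in NICD4 had a median of 53.2% and those called down 43.9%. Values are therefore also given from a fit in which the trend on GC content was removed from each library. Scaling by total counted reads alone, in place of TMM, shifted the median change of all tested genes from -0.08, -0.03, -0.07 and -0.12 to -0.54, -0.31, -0.48 and -0.66 in NICD1 to NICD4. With it the share of genes up and down became 21.9% and 56.2% in NICD1, 18.8% and 44.1% in NICD2, 19.9% and 54.6% in NICD3, and 24.1% and 58.7% in NICD4. Of the 39 genes, 8, 7, 6 and 10 were then called up and 22, 14, 20 and 26 down. Removal of the GC trend moved the median to 0.12, 0.13, 0.10 and 0.10. Changes described below under TMM are thus relative to the bulk of genes.

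In EV, cytosolic enzymes were the more abundant class. Per kilobase of the longest annotated transcript, their median level was 45.5 CPM per kb, from 14.1 for CARS1, the cysteine enzyme, to 101 for FARSA. Mitochondrial enzymes had a median of 6.95 CPM per kb, from 2.65 for MARS2, the methionine enzyme, to 45.8 for HARS2, the histidine enzyme. GARS1 (103 CPM per kb) and KARS1 (123 CPM per kb), which serve both compartments, stood at the top. The 2 classes overlapped in level, since CARS1 lay below HARS2.

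The synthetase genes did not move as 1 block in any NICD line. In NICD1, 17 of the 39 genes rose and 17 fell (43.6% each), beside 35.6% up and 39.8% down among all tested genes. In NICD2, 17 rose (43.6%) and 6 fell (15.4%), beside 29.6% and 30.0%. In NICD3, 17 rose (43.6%) and 12 fell (30.8%), beside 33.0% and 36.2%. In NICD4, 16 rose (41%) and 19 fell (48.7%), beside 37.3% and 43.6%. The widest gap to the background was in NICD2, with more rises and fewer falls, and the shares in NICD1 and NICD4 lay closer to it.

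With the GC trend removed, more of the genes were up and fewer down. NICD1 then had 20 up and 9 down, against 41.4% and 29% of all tested genes, and NICD2 had 21 and 3, against 38.3% and 22.4%. NICD3 had 20 and 7, against 39% and 27.3%, and NICD4 had 22 and 15, against 41.6% and 33.2%. As shares, the genes up under this fit were 51.3%, 53.8%, 51.3% and 56.4% of the 39. In each comparison the split between rises and falls thus moved with this step.

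**Figure D1:**
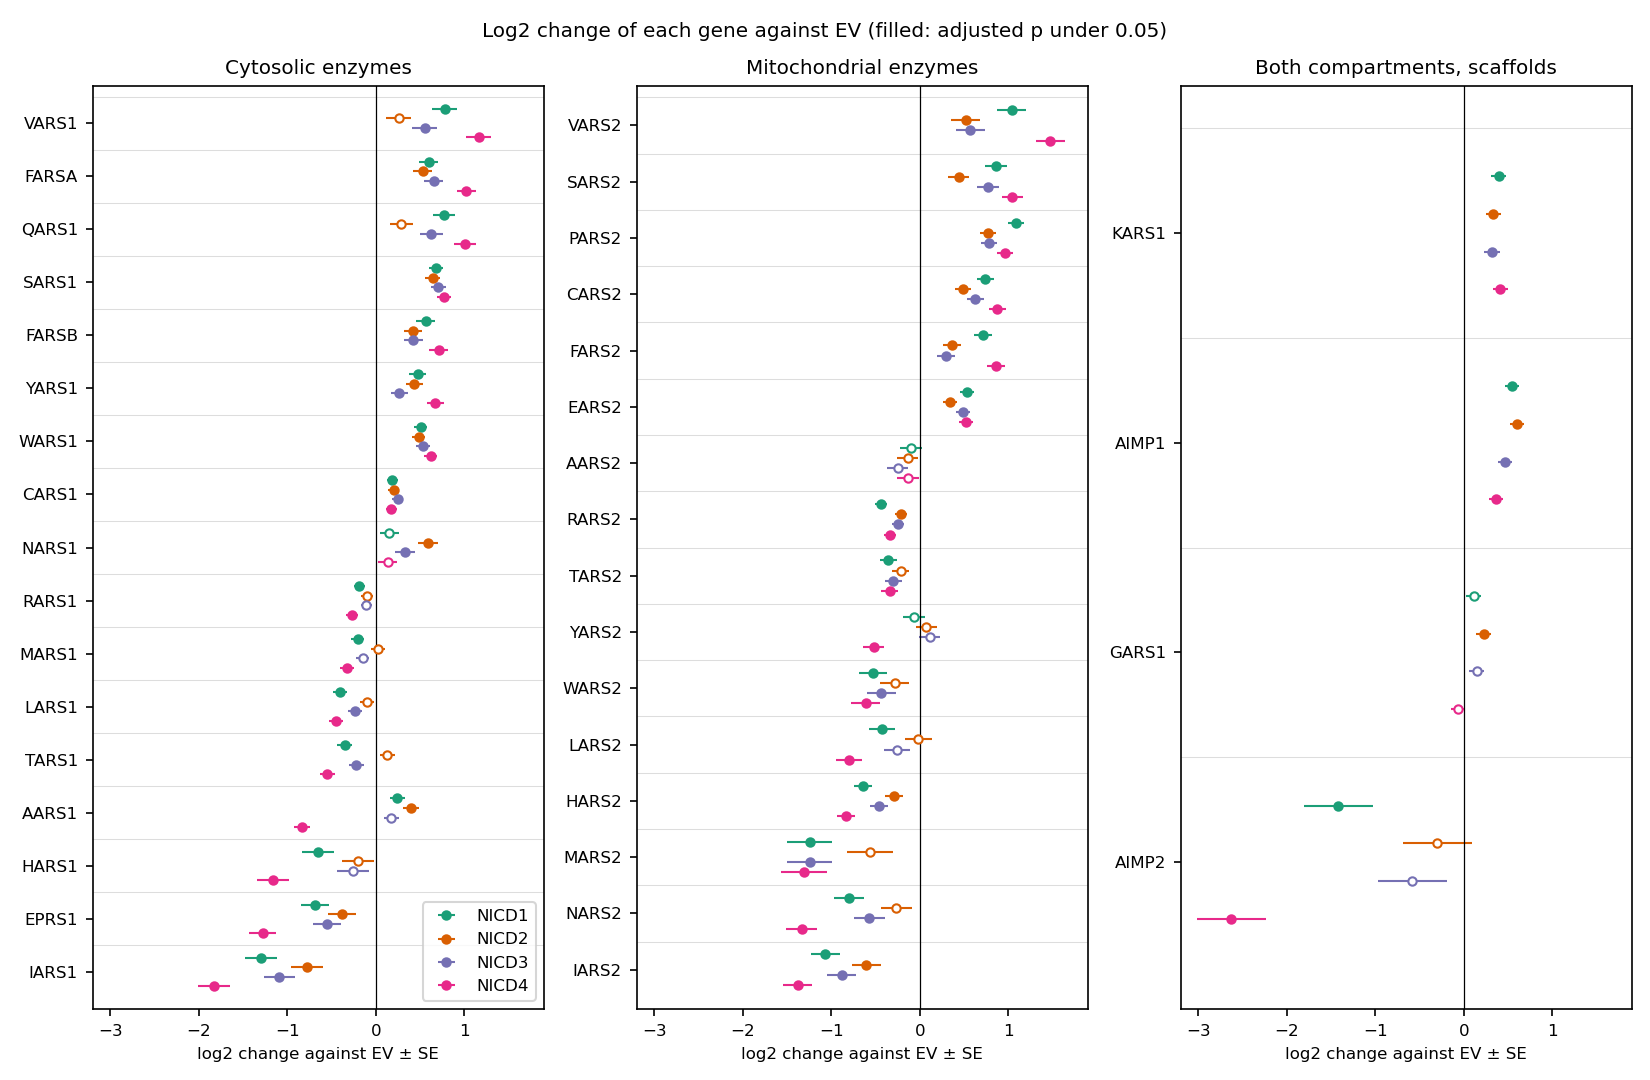
Log2 change against EV ± SE (x axis) of each gene named in the rows, in 3 panels by compartment, with 1 colour per NICD group and filled points where the adjusted p was under 0.05. IARS1 and IARS2 lay to the left and SARS1, PARS2 and CARS2 to the right in all 4 groups, while AARS1 had NICD4 alone on the left.

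Among the 18 cytosolic enzymes, 9 rose and 8 fell in NICD1, 8 and 3 in NICD2, 9 and 5 in NICD3, and 8 and 9 in NICD4, with median changes of 0.17, 0.23, 0.21 and -0.07. Among the 17 mitochondrial enzymes, 6 rose in each comparison, while 8, 3, 7 and 9 fell, with median changes of -0.10, -0.04, -0.25 and -0.34. Both classes held risers and fallers in every line. The cytosolic medians were above the mitochondrial ones in all 4 comparisons, and with the GC trend removed they were 0.21, 0.28, 0.23 and 0.30 against 0.10, 0.16, 0.23 and 0.11. No test was made on these medians, because genes are not replicates. Split by the fold of the catalytic domain, the 18 class I genes had 8 rises and 9 falls in NICD1, 6 and 3 in NICD2, 8 and 6 in NICD3, and 8 and 10 in NICD4, and the 18 class II genes 8 and 6, 10 and 2, 8 and 5, and 7 and 7. The shares up were 44.4%, 33.3%, 44.4% and 44.4% of class I and 44.4%, 55.6%, 44.4% and 38.9% of class II, beside 35.6%, 29.6%, 33.0% and 37.3% of all tested genes. After removal of the GC trend the counts were 9 and 4, 8 and 2, 8 and 4, and 11 and 6 for class I, where rises then outnumbered falls in NICD4, and 10 and 4, 12 and 1, 11 and 3, and 10 and 7 for class II.

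Summed over each class, the mitochondrial share was slightly lower in the NICD lines. The share of the 17 mitochondrial enzymes in the summed CPM of the 35 single-compartment enzymes, a ratio that library scaling does not touch, was 19.1%, 19.5% and 19.2% in EV. It was 17.8%, 17.8% and 18.2% in NICD1 and 17.5%, 18.2% and 17.5% in NICD2. NICD3 had 17.4%, 18.1% and 18.1%, and NICD4 had 17.1%, 17.5% and 17.7%. Every NICD library was below every EV library, and the NICD groups overlapped each other. Abundant genes weigh most in such sums. FARSA, QARS1 and VARS1 had means of 208, 249 and 225 CPM in EV and 426, 504 and 510 in NICD4. There 8 cytosolic enzymes rose and 9 fell. The median cytosolic level per kb was 45.5 CPM in EV and 37.7, 40.9, 40.4 and 29.2 in NICD1 to NICD4. The mitochondrial median was 6.95 in EV and 7.44, 6.78, 6.87 and 6.58. The share was not computed with the GC trend removed. The sums themselves were not as firm: the cytosolic sum was 2806 to 2887 scaled CPM in EV and 3058 to 3583 in the NICD libraries, but as CPM of all counted reads, without TMM, it was 3395 to 3771 in EV and 2824 to 3493 in the NICD libraries. In bulk RNA, fewer cells of a type and less RNA per cell cannot be told apart.

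**Figure D2:**
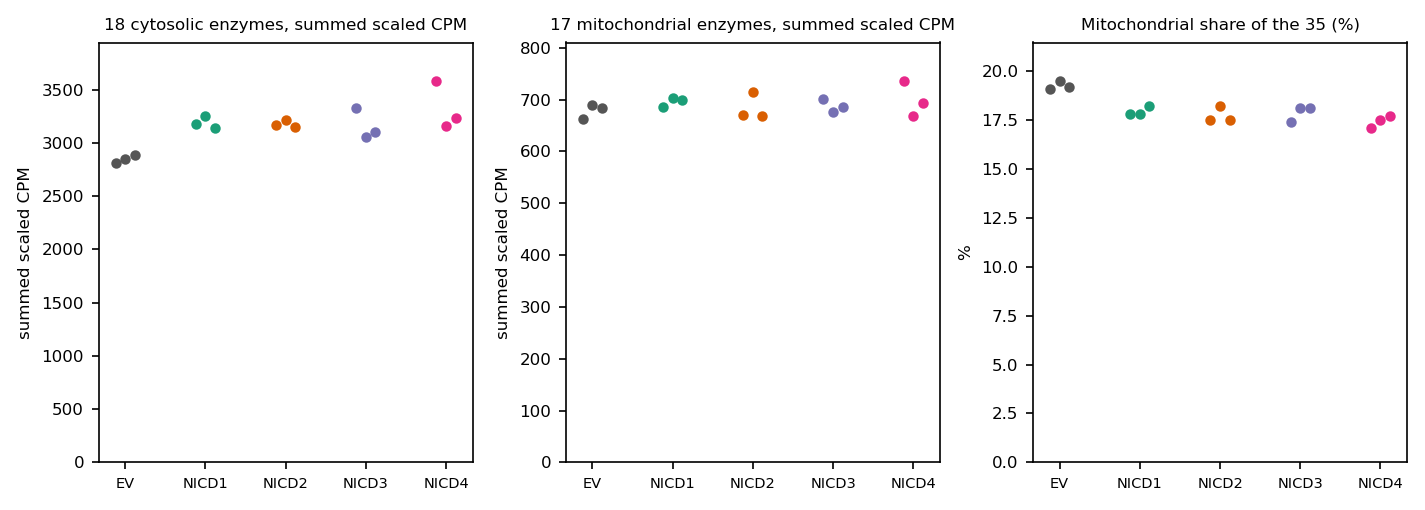
Summed scaled CPM of the 18 cytosolic (left) and 17 mitochondrial (middle) enzymes and the mitochondrial share in percent (right), 1 point per library. The share was 19.1% to 19.5% in EV and 17.1% to 18.2% in the 12 NICD libraries.

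Genes that kept their direction in all lines fell into 2 unequal groups. A rise in all 4 comparisons was called for 14 of the 39 genes (35.9%), beside 23.1% of all tested genes, and a fall in all 4 for 6 (15.4%), beside 23.3%. The risers were CARS1, FARSA, FARSB, SARS1, WARS1 and YARS1 of the cytosol, KARS1 of both compartments, CARS2, EARS2, FARS2, PARS2, SARS2 and VARS2 of the mitochondrion, and AIMP1. Among the fallers were EPRS1 and IARS1 of the cytosol and HARS2, IARS2 and RARS2 of the mitochondrion. Once the GC trend was removed, 11 of the 14 risers and, of the 6 fallers, IARS1 and IARS2 kept their pattern. Under total-read scaling, 11 of the 14 risers lost at least 1 of their 4 calls, all but SARS1, CARS2 and PARS2, and of the 11, CARS1, KARS1, YARS1, EARS2, FARS2 and AIMP1 turned to the other direction in at least 1 comparison. Calls that held under every setting tried, with each library left out in turn, were found in all 4 comparisons for IARS1 and IARS2 (down) and for SARS1, CARS2 and PARS2 (up).

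The isoleucine enzymes fell in both compartments, IARS1 in the cytosol and IARS2 in the mitochondrion. IARS1 (ENSG00000196305, GRCh37 chr9:94972489-95056038) stood at 203, 252 and 245 CPM in EV, 103, 77.1 and 107 in NICD1, 123, 169.6 and 119.5 in NICD2, 103, 111 and 114 in NICD3, and 50.8, 83.6 and 66.1 in NICD4. No NICD library reached the lowest EV library. The changes were -1.30 ± 0.18 in NICD1 (adjusted p = 1.3e-05, limma), -0.78 ± 0.18 in NICD2 (0.0017), -1.09 ± 0.18 in NICD3 (8e-05) and -1.83 ± 0.18 in NICD4 (3.5e-07), the last a 3.55-fold lower level. They were -0.78, -0.45, -0.68 and -1.18 with the GC trend removed, still called.

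IARS2 (ENSG00000067704, chr1:220267444-220321380) stood at 90.2, 121 and 112 CPM in EV, 55.0, 42.8 and 56.0 in NICD1, 60.5, 86.4 and 66.0 in NICD2, 51.0, 58.8 and 64.4 in NICD3, and 33.6, 45.7 and 44.8 in NICD4. As for its cytosolic partner, every NICD library was below every EV library, with NICD4 lowest and NICD2 highest by mean. The changes were -1.07 ± 0.16 (adjusted p = 3.6e-05, limma), -0.60 ± 0.16 (0.0052), -0.88 ± 0.16 (0.00023) and -1.38 ± 0.16 (2.1e-06), and -0.56, -0.28, -0.48 and -0.75 with the GC trend removed. NICD2 replicate 2 was the highest NICD library for both genes.

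Both serine enzymes rose. SARS1 (ENSG00000031698, chr1:109756540-109780791), the cytosolic one, stood at 137, 121 and 131 CPM in EV and at 204, 211 and 209.9 in NICD1, 204, 196 and 207 in NICD2, 236, 202 and 199.8 in NICD3, and 233, 215 and 218 in NICD4. The 12 NICD libraries lay between 196 and 236 CPM, all above EV. The changes were 0.68, 0.64, 0.71 and 0.77, each ± 0.08 (adjusted p from 6.2e-07 to 1.1e-05, limma), and differences among the NICD groups did not pass the F-test (adjusted p = 0.47, limma). SARS2, the mitochondrial one, stood at 75.2, 64.2 and 65.3 CPM in EV, 121, 141 and 111 in NICD1, 94.9, 87.6 and 94.4 in NICD2, 130.0, 112 and 108 in NICD3, and 170.3, 123 and 133 in NICD4. Its groups also did not overlap EV, and its changes of 0.86, 0.44, 0.77 and 1.05 dropped to 0.32, 0.22, 0.35 and 0.26 with the GC trend removed. Its NICD2 call was lost under total-read scaling. The deposited span of SARS2 (chr19:39405904-39466380) contains the 2310 bases of MRPS12, a mitochondrial ribosomal protein gene, which rose by 1.56, 1.04, 1.44 and 1.83. Reads in the shared bases cannot be told apart if counting ignored strand, which is not stated.

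PARS2, the mitochondrial proline enzyme, was among the least abundant members and had the largest rise of any of them in NICD1. It stood at 8.25, 7.85 and 7.66 CPM in EV, 16.8, 16.7 and 17.1 in NICD1, 12.8, 13.8 and 14.0 in NICD2, 15.1, 13.6 and 12.3 in NICD3, and 15.6, 16.1 and 14.6 in NICD4. Replicates lay close and no NICD library came near EV. The changes were 1.09 ± 0.09 (adjusted p = 1.3e-07, limma), 0.77 ± 0.09 (6.3e-06), 0.78 ± 0.09 (4.2e-06) and 0.96 ± 0.09 (2.8e-07), and 0.98, 0.75, 0.68 and 0.76 with the GC trend removed. CARS2, the mitochondrial cysteine enzyme, behaved alike in direction, at 57.2 to 67.6 CPM in EV and 80.1 to 122 CPM in the NICD libraries, with changes of 0.74, 0.49, 0.63 and 0.87.

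All 3 phenylalanine genes rose in every line. FARSA, the catalytic subunit of the cytosolic tetramer, stood at 226, 192 and 207 CPM in EV, 318, 338 and 289 in NICD1, 304, 296 and 299 in NICD2, 361, 314 and 308 in NICD3, and 497, 375 and 406 in NICD4. Its partner subunit FARSB, encoded on another chromosome, stood at 159, 139.8 and 157 CPM in EV, 225, 246 and 202 in NICD1, 213, 182 and 215 in NICD2, 226, 194 and 191 in NICD3, and 277, 229 and 241 in NICD4. Neither subunit overlapped EV in any group. FARSA changed by 0.60, 0.53, 0.65 and 1.02 and FARSB by 0.56, 0.42, 0.42 and 0.71. Their transcripts differ in GC content (60.3% for FARSA, 41.6% for FARSB), and with the trend removed the changes became 0.10, 0.34, 0.27 and 0.31 for FARSA, not called in NICD1, against 1.20, 0.80, 0.93 and 1.49 for FARSB. The relative size of the subunits' changes thus turned with this step. FARS2, the mitochondrial enzyme, rose by 0.71, 0.37, 0.30 and 0.86, and its call in NICD3 was lost without EV replicate 2, EV replicate 3 or NICD3 replicate 1. Total-read scaling removed the calls of FARSA in NICD1 (0.14), of FARSB in NICD1, NICD2 and NICD3, and of FARS2 in NICD2 and NICD3 (0.08 and -0.12).

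The valine genes VARS1 (cytosolic) and VARS2 (mitochondrial), both on chromosome 6, had the largest rises in NICD4. VARS2 stood at 22.1, 22.2 and 20.9 CPM in EV and at 83.6, 46.1 and 57.8 in NICD4, a change of 1.48 ± 0.16 (adjusted p = 1.1e-06, limma), with NICD4 replicate 1 well above the other 2. It stood at 41.1, 53.4 and 40.6 CPM in NICD1, 30.9, 29.2 and 33.6 in NICD2, and 34.2, 31.2 and 31.7 in NICD3, changes of 1.04, 0.52 and 0.57. The call in NICD2 was lost without EV replicate 3 or NICD2 replicate 3, and those in NICD2 and NICD3 under total-read scaling. VARS1 changed by 0.78, 0.26 (not called), 0.55 and 1.16. It has the highest GC content of the 39 genes (62.6%), and with the trend removed only its NICD4 change of 0.28 remained called, while VARS2 kept 0.60, 0.36 and 0.85 in NICD1, NICD2 and NICD4.

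WARS1, the cytosolic tryptophan enzyme that interferon-gamma is known to induce, stood at 94.2, 87.0 and 90.5 CPM in EV, 136, 125 and 125 in NICD1, 127, 125 and 128 in NICD2, 144, 124 and 126 in NICD3, and 146, 139 and 132 in NICD4. It rose by 0.51, 0.48, 0.53 and 0.62, and by 0.56, 0.56, 0.57 and 0.63 with the GC trend removed. Under total-read scaling the changes were 0.05, 0.20, 0.11 and 0.07, called in NICD2 alone. No NICD library overlapped EV, and differences among the NICD lines did not pass the F-test (adjusted p = 0.38, limma). Of 8 other interferon-gamma response genes fixed in a list, 4 had reads enough to test. Among them PSMB9, an immunoproteasome subunit, rose in all 4 lines (by 1.62, 1.09, 2.47 and 2.43) and the peptide transporter TAP1 fell in all 4. IRF1, an interferon-induced transcription factor, rose in NICD2 alone (0.38) and kept no call there under total-read scaling.

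The largest fall of any of the 39 genes, that in NICD4, belonged to the scaffold gene AIMP2 (ENSG00000106305, chr7:6048876-6063465), whose product holds the multisynthetase complex together. AIMP2 stood at 30.6, 34.5 and 33.8 CPM in EV, 15.1, 6.83 and 18.0 in NICD1, 22.3, 39.2 and 22 in NICD2, 17.6, 24.8 and 24.3 in NICD3, and 2.71, 9.0 and 6.03 in NICD4. NICD1 and NICD4 lay wholly below EV, NICD3 as well though uncalled, and NICD2 overlapped it through replicate 2. The changes were -1.42 ± 0.39 (adjusted p = 0.0043, limma), -0.30 ± 0.39 (0.53), -0.58 ± 0.39 (0.20) and -2.63 ± 0.39 (2e-05), the last a 6.18-fold lower level. Removal of the GC trend left them at -1.34, -0.21, -0.53 and -2.58. The differences of NICD4 from NICD1, NICD2 and NICD3 were -1.21, -2.33 and -2.04, each ± 0.39 (adjusted p = 0.033, 0.0002 and 0.0011, limma). EIF2AK1, which encodes a kinase of the integrated stress response and shares 1585 of the 14590 bases of the AIMP2 span, rose in all 4 lines (by 0.80, 0.48, 0.68 and 0.74), opposite to AIMP2 in NICD1 and NICD4.

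AIMP1, the scaffold whose product binds the arginine enzyme in the complex, rose instead. It stood at 85.9, 75.6 and 80.7 CPM in EV, 116, 126 and 111 in NICD1, 124, 114 and 128 in NICD2, 109, 111 and 114 in NICD3, and 110.2, 103 and 98.3 in NICD4. The changes were 0.54, 0.60, 0.47 and 0.36, each ± 0.08 (adjusted p from 1.7e-05 to 0.00062, limma), although total-read scaling turned the NICD4 value to -0.18 and removed the calls in NICD1 and NICD3. AIMP1 has the lowest GC content of the 39 genes (36.3%), and removal of the trend raised its changes to 1.39, 1.10, 1.16 and 1.39. The third scaffold EEF1E1, which is outside the rule, changed by -0.57, -0.11 (not called), -0.40 and -0.82, and by 0.27, 0.39, 0.28 and 0.20 with the trend removed.

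The multisynthetase complex list holds 11 genes, 10 of the 39 and EEF1E1. Of these, 3 rose and 8 fell in NICD1, 2 and 3 in NICD2, 3 and 5 in NICD3, and 3 and 8 in NICD4. Of its 8 enzymes, KARS1 and QARS1 were the risers, and 6, 3, 4 and 6 of the other enzymes fell. Of the complex 72.7%, 27.3%, 45.5% and 72.7% thus fell, beside 39.8%, 30.0%, 36.2% and 43.6% of all tested genes. The 11 cytosolic enzymes outside the complex had 8 up and 2 down in NICD1, 8 and 0 in NICD2, 8 and 1 in NICD3, and 7 and 3 in NICD4. Of these 72.7%, 72.7%, 72.7% and 63.6% rose, beside 35.6%, 29.6%, 33.0% and 37.3% of all tested genes, and the difference between the 2 lists was not tested. Removal of the GC trend gave the complex 6 up and 3 down in NICD1, 5 and 1 in NICD2, 6 and 2 in NICD3, and 6 and 5 in NICD4. The share down was then 27.3%, 9.09%, 18.2% and 45.5%, beside 29%, 22.4%, 27.3% and 33.2% of all tested genes, so that it lay above the background in NICD4 and not in the other lines. The enzymes outside the complex had 7 up and 0 down, 9 and 0, 7 and 0, and 8 and 2 in that fit. Several complex genes have transcripts of low GC content, among them RARS1 (41.4% GC), LARS1 (41.5%), EPRS1 (43.2%) and IARS1 (43.6%).

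EPRS1, the enzyme for glutamate and proline, was another complex member with large falls, with changes of -0.69, -0.38, -0.55 and -1.28. With the GC trend removed only its NICD4 change was still called, at -0.61. The NICD2 call (adjusted p = 0.045, limma) was lost without EV replicate 2 or 3, NICD1 replicate 1, NICD2 replicate 1 or 3, any NICD3 replicate or NICD4 replicate 3. LARS1 and RARS1, the leucine and arginine enzymes, fell by 0.40 and 0.19 in NICD1 and by 0.45 and 0.27 in NICD4, and were called up with the trend removed (0.24 and 0.47 in NICD1, 0.34 and 0.52 in NICD4). QARS1, the glutamine enzyme, rose, as did the complex members KARS1 and AIMP1. QARS1 changed by 0.77, 0.29 (not called), 0.63 and 1.01.

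KARS1 and GARS1 each serve cytosol and mitochondrion from 1 gene. KARS1 rose by 0.40, 0.34, 0.32 and 0.41, each ± 0.09, although under total-read scaling its changes in NICD1, NICD3 and NICD4 were -0.06, -0.10 and -0.13 and its NICD2 call was lost. GARS1 was at 255 to 288 CPM in EV and 234 to 320.1 CPM in the NICD libraries, and changed by 0.11, 0.22, 0.14 and -0.07. Only the NICD2 value was called (adjusted p = 0.03, limma), and it was lost without EV replicate 2 or 3 or NICD2 replicate 1 or 3, without the filter on low counts and under total-read scaling (-0.06). With the GC trend removed, by contrast, GARS1 as well as KARS1 was called up in all 4 comparisons.

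AARS1, the cytosolic alanine enzyme, was the member with calls in opposite directions, a pattern held by 1 of 39 genes (2.56%) and by 3.11% of all tested genes. AARS1 (ENSG00000090861, chr16:70286293-70323446) stood at 164, 173 and 171 CPM in EV, 199, 181 and 223 in NICD1, 214, 239.6 and 217 in NICD2, 195, 192 and 187 in NICD3, and 88.2, 103 and 94.4 in NICD4. The first 3 NICD groups lay above EV without overlap, and all NICD4 libraries lay far below. The changes were 0.24 ± 0.09 (adjusted p = 0.021, limma), 0.40 ± 0.09 (0.0013), 0.17 ± 0.09 (0.088, not called) and -0.83 ± 0.09 (6.8e-07). With the GC trend removed they were 0.18 (no longer called), 0.40, 0.11 and -0.98, and under total-read scaling the NICD1 value was -0.22 and the NICD2 call was lost. The NICD1 call was also lost without the filter on low counts, without any 1 EV replicate or without NICD1 replicate 3, whereas the NICD2 and NICD4 calls kept an adjusted p of at most 0.0087 and 8.6e-06 with any library left out. The differences of NICD4 from NICD1, NICD2 and NICD3 were -1.08, -1.23 and -1.01, each ± 0.09 (adjusted p at most 2.6e-06, limma). AARS2, its mitochondrial partner, was at 11.5 to 15.6 CPM throughout and was called in no comparison (changes of -0.10, -0.14, -0.25 and -0.13).

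**Figure D3:**
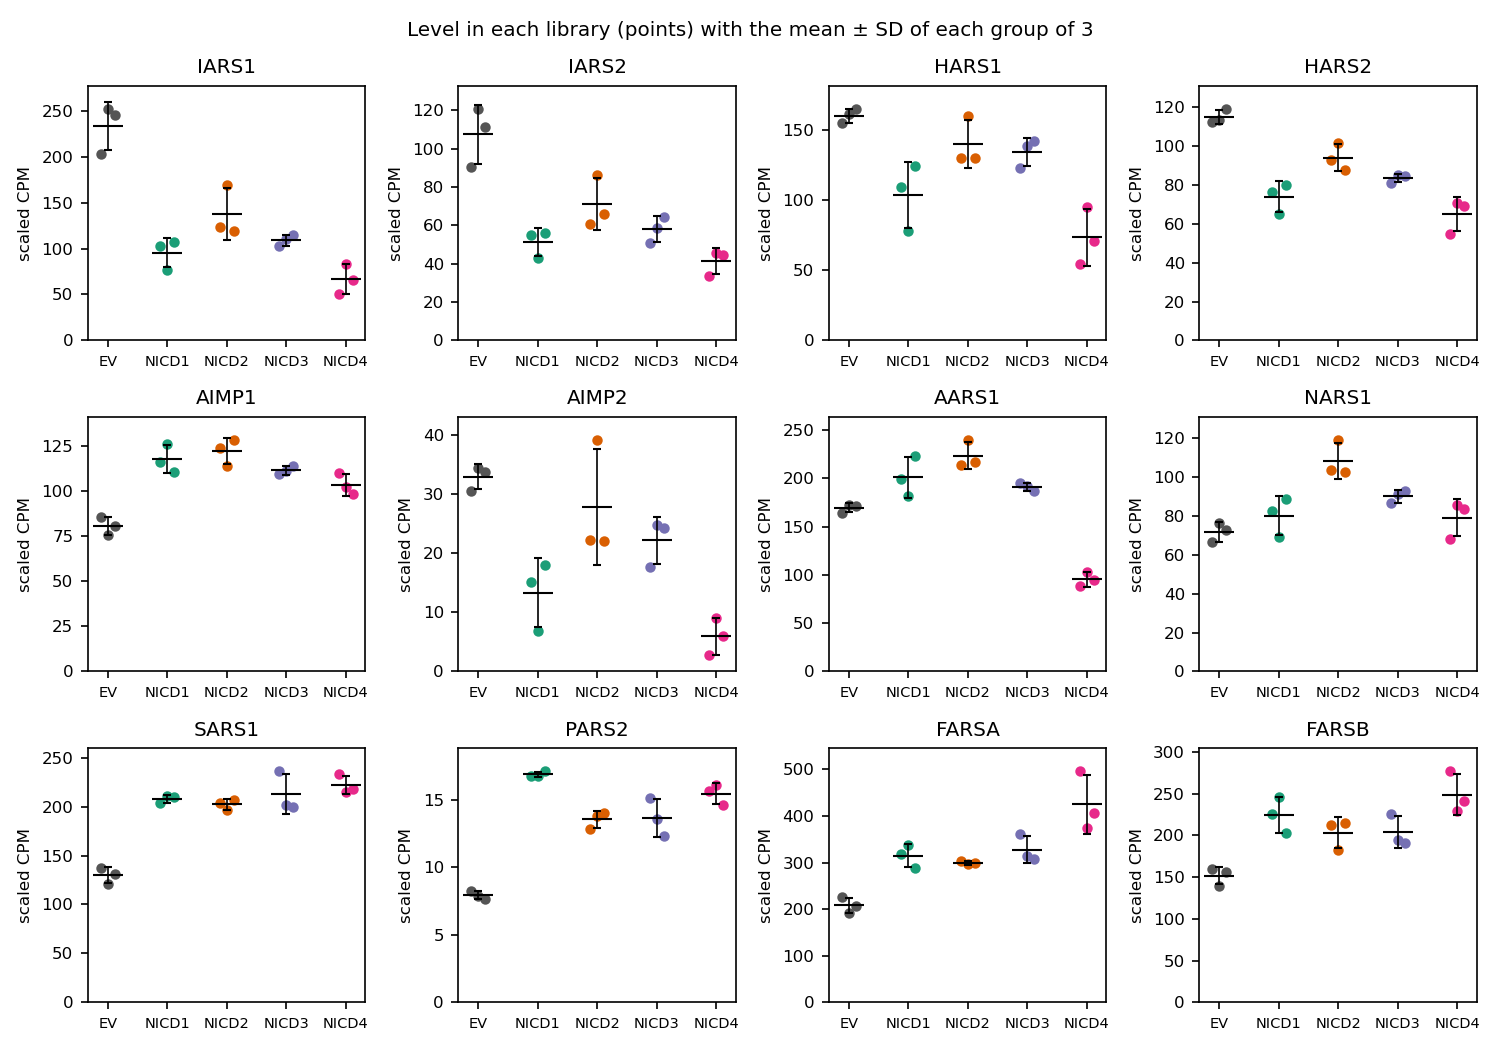
Scaled CPM (y axis, from 0) of 12 genes in each library (points), with the mean ± SD of the 3 libraries of a group (black). AARS1 stood at 88.2 to 103 CPM in NICD4 and at 164 to 239.6 CPM in the other groups, and AIMP2 at 2.71 to 9.0 CPM in NICD4 against 30.6 to 34.5 CPM in EV.

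The histidine genes lie head to head on chromosome 5 and fell together. HARS1 (cytosolic, chr5:140052758-140071609) stood at 155, 161 and 165 CPM in EV, 109, 78.1 and 124 in NICD1, 129.7, 160.0 and 130.2 in NICD2, 123, 138 and 142 in NICD3, and 54.8, 95.1 and 70.9 in NICD4. HARS2 (mitochondrial, chr5:140071011-140078889) stood at 112, 113 and 119 CPM in EV, 76.6, 65.0 and 80.1 in NICD1, 92.8, 102 and 87.7 in NICD2, 81.1, 84.9 and 84.5 in NICD3, and 54.7, 70.6 and 69.2 in NICD4. NICD1 and NICD4 were the lowest groups for both. HARS1 fell by 0.65 ± 0.18 in NICD1 (adjusted p = 0.0044, limma) and by 1.16 ± 0.18 in NICD4 (3.1e-05), and its changes of -0.20 and -0.26 in NICD2 and NICD3 were not called. HARS2 fell by 0.64, 0.29, 0.46 and 0.83, each ± 0.10, its NICD2 call being lost without EV replicate 3 or NICD2 replicate 1 or 3. After removal of the GC trend HARS1 was called only in NICD4 (-0.73), and HARS2 in NICD1, NICD3 and NICD4 (-0.47, -0.33 and -0.66). The deposited spans of the 2 genes overlap by 599 bases, where reads cannot be told apart if counting ignored strand.

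The bases between the RefSeq starts of this pair are shown because both genes start from them in opposite directions. The stretch is 84 bases long with 59.5% GC (chr5:140691371-140691454, build GRCh38.p14, plus strand, HARS1 reading to the left and HARS2 to the right). Capitals mark matches to CCGGAAG, a core of ETS-family sites, on either strand, of which there are 2.
HARS1 to HARS2: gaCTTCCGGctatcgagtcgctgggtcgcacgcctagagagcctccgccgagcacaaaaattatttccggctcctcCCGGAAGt
RefSeq windows from 250 bases before to 50 after a start were found for 32 of the 39 genes. CCGGAAG stood in a window of 16 of them (50%) and of 12.2% of all 27305 genes with windows (10.3% of windows). The motif TGGGAA, bound by RBPJ, the DNA-binding partner of the NOTCH intracellular domain, stood in a window of 11 (34.4%), beside 28.1% of all genes and 24.0% of windows. Its holders included AIMP2, EPRS1, HARS1 and TARS1, which fell in NICD4, and FARSA, CARS2, EARS2 and QARS1, which rose there. Both motifs were searched on both strands, neither contains the other, and a match is a description of letters.

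The element that ATF4 binds with C/EBP partners, TGATGNAA on either strand, stood in a window of 8 of the 32 genes (25.0%), beside 4.46% of all genes and 3.62% of windows. The 8 sites are printed because they place the known amino acid response element beside genes that moved in different directions here. Capitals mark the match, each sequence is on the gene's own strand, and positions are GRCh38.p14 from RefSeq.
IARS1, chr9:92293688-92293730, minus strand: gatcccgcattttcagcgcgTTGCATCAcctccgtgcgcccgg
AARS1, chr16:70289666-70289713, minus strand: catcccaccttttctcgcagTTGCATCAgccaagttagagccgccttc
CARS1, chr11:3057407-3057436, minus strand: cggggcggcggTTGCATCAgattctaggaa
GARS1, chr7:30594825-30594872, plus strand: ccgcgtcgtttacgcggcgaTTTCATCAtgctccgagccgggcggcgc
MARS1, chr12:57488053-57488082, plus strand: gccggttccggTTGCATCAgcgagggattc
NARS1, chr18:57621804-57621833, minus strand: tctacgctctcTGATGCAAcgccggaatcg
TARS1, chr5:33440956-33440985, plus strand: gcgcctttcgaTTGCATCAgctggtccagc
YARS2, chr12:32756067-32756114, minus strand: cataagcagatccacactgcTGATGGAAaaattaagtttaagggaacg
In IARS1 the match begins 13 bases before the start and in CARS1 2 bases before it, while IARS1 fell in all 4 lines and CARS1 rose in all 4 by 0.19, 0.20, 0.25 and 0.18 (-0.27, -0.08, -0.17 and -0.37 under total-read scaling). The CARS1 calls in NICD1, NICD2 and NICD4 were each lost without EV replicate 2 or 3, that in NICD1 without NICD1 replicate 3, that in NICD2 without NICD2 replicate 3, and that in NICD4 without NICD4 replicate 2 or 3.

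The cytosolic genes reported to respond to ATF4, with GARS1, were 12 of the members. Of these, 5 rose and 5 fell in NICD1, 7 and 2 in NICD2, 5 and 4 in NICD3, and 4 and 6 in NICD4, with medians of 0.13, 0.21, 0.16 and -0.20. The shares up were 41.7%, 58.3%, 41.7% and 33.3%, beside 35.6%, 29.6%, 33.0% and 37.3% of all tested genes, and those down 41.7%, 16.7%, 33.3% and 50%, beside 39.8%, 30.0%, 36.2% and 43.6%. Removal of the GC trend gave 8 up and 2 down, 9 and 1, 7 and 2, and 7 and 4, with medians of 0.24, 0.38, 0.23 and 0.20, so the NICD4 median changed sign. NARS1, the cytosolic asparagine enzyme, stood at 66.4, 76.5 and 72.9 CPM in EV, 82.6, 69.1 and 88.8 in NICD1, 104, 119 and 103 in NICD2, 86.6, 91.1 and 93.0 in NICD3, and 68.0, 85.7 and 83.8 in NICD4. It rose without overlap in NICD2 (0.59 ± 0.11, adjusted p = 0.00036, limma, not called under total-read scaling at 0.31) and in NICD3 (0.33 ± 0.11, 0.015, lost without EV replicate 1, and -0.09 under total-read scaling). With the GC trend removed NARS1 was called up in all 4 comparisons. TARS1, the cytosolic threonine enzyme, was higher in NICD2 than in each other NICD line (by 0.48 over NICD1, 0.35 over NICD3 and 0.68 over NICD4, each ± 0.09), and its changes against EV of -0.35, 0.13, -0.22 and -0.55 became 0.16, 0.46, 0.19 and 0.09 with the GC trend removed. Its NICD3 call was lost without EV replicate 2 or 3 or NICD3 replicate 1 or 2.

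ATF4 itself was called in NICD2 alone (0.33, and 0.24 with the GC trend removed). That call was lost under total-read scaling (0.05). ATF4 changed by 0.07, 0.02 and 0.03 in NICD1, NICD3 and NICD4. In these lines both total-read scaling (-0.39, -0.39 and -0.52) and removal of the GC trend (-0.21, -0.21 and -0.39) gave falls. Of 17 tested genes of a list of ATF4 with its non-synthetase targets, 10 rose and 4 fell in NICD1, 12 and 4 in NICD2, 9 and 3 in NICD3, and 11 and 4 in NICD4, with medians of 0.61, 0.43, 0.41 and 0.65. The shares up were 58.8%, 70.6%, 52.9% and 64.7%, beside 35.6%, 29.6%, 33.0% and 37.3% of all tested genes. In the fit without the GC trend, 11 were up and 4 down, 12 and 3, 9 and 4, and 9 and 5, and the medians became 0.31, 0.53, 0.17 and 0.22. PHGDH, which opens serine synthesis, rose by 1.47, 1.04, 1.69 and 1.85, and CHAC1, a glutathione-degrading enzyme of the stress response, by 1.34, 1.92, 1.29 and 2.11. ATF3 fell by 1.02, 0.93, 1.21 and 1.07, and PSAT1, the next serine synthesis enzyme, changed by -0.52, -0.31, -0.49 and -0.68, near 0 and uncalled with the GC trend removed.

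Amino acids with separate genes for the 2 compartments gave 18 pairs, counting FARSA and FARSB each with FARS2 and EPRS1 with EARS2 and PARS2. Both partners rose in 5 pairs, both fell in 6 and they were called in opposite directions in 3 in NICD1, with 4, 1 and 2 in NICD2, 5, 2 and 4 in NICD3, and 5, 6 and 4 in NICD4. Single genes of the whole table were up in 35.6%, 29.6%, 33.0% and 37.3% and down in 39.8%, 30.0%, 36.2% and 43.6% of cases. These are shares of single genes and not a background for pairs. How often other pairs of genes shared a call was not computed, and the pair counts were not tested. The cysteine, serine and phenylalanine pairs rose together in all 4 lines, and the isoleucine pair fell together in all 4. Opposite calls were found for EPRS1 with both mitochondrial partners in every line, for WARS1 with WARS2 in NICD1, NICD3 and NICD4, for NARS1 with NARS2 in NICD3, and for YARS1 with YARS2 in NICD4. With the GC trend removed, the EPRS1 and YARS1 pairs stayed opposite in NICD4, the other calls in opposite directions were lost, and the threonine pair became opposite in NICD1, NICD2 and NICD3, the asparagine pair in NICD1 and NICD4, and, among others, the leucine pair in NICD4.

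EPRS1 carries both activities in 1 protein, whereas the mitochondrion uses EARS2 and PARS2. EPRS1 stood at 192, 214 and 212 CPM in EV, 132, 109.6 and 144 in NICD1, 154, 171 and 149 in NICD2, 134, 138 and 149 in NICD3, and 63.8, 111 and 86.0 in NICD4. EARS2 stood at 49.3, 47.9 and 51.6 CPM in EV, 68.5, 73.9 and 73.1 in NICD1, 61.9, 63.4 and 63.4 in NICD2, 73.2, 64.2 and 72.3 in NICD3, and 78.0, 64.9 and 71.2 in NICD4. No NICD library overlapped EV for either gene, with EPRS1 below and EARS2 above. EARS2 changed by 0.53, 0.34, 0.49 and 0.52, and by 0.60, 0.42, 0.54 and 0.55 with the GC trend removed, while total-read scaling brought them to 0.08, 0.06, 0.07 and -0.02, none of them called.

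YARS1, the cytosolic tyrosine enzyme, and YARS2, its mitochondrial partner, parted in NICD4. YARS1 stood at 173, 170.2 and 177 CPM in EV, 236, 262 and 225 in NICD1, 235, 234 and 234 in NICD2, 232, 195 and 199.9 in NICD3, and 319.8, 249 and 266 in NICD4. It rose by 0.47, 0.43, 0.27 and 0.67. The NICD3 call was lost with the GC trend removed, and also without any 1 EV replicate or NICD3 replicate 1. Total-read scaling turned the NICD3 value to -0.15 and removed the NICD1 and NICD4 calls. YARS2 stood at 50.9, 48.0 and 49.4 CPM in EV, 46.7, 42.7 and 52.9 in NICD1, 52.3, 56.1 and 47.8 in NICD2, 54.4, 51.5 and 54.2 in NICD3, and 27.9, 41.6 and 35.1 in NICD4. It was lower in NICD4 than in EV (-0.52 ± 0.12, adjusted p = 0.00099, limma) and than in NICD1, NICD2 and NICD3 (-0.46, -0.60 and -0.63), and uncalled elsewhere. Most of the YARS2 span, 25277 of 28413 bases, overlaps that of DNM1L, a mitochondrial fission gene, which changed by -0.29 in NICD4 (0.53 with the GC trend removed).

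WARS2 and NARS2, the mitochondrial tryptophan and asparagine enzymes, were the falling members of their pairs. WARS2 stood at 11.7, 11 and 12.3 CPM in EV, 8.04, 7.37 and 8.75 in NICD1, 9.49, 11.2 and 8.19 in NICD2, 6.93, 9.84 and 9.33 in NICD3, and 7.05, 6.59 and 9.44 in NICD4. It changed by -0.53, -0.28 (not called), -0.43 and -0.61, the NICD3 call being lost without EV replicate 3 or NICD3 replicate 1, and by 0.06, 0.07, 0.03 and 0.11 with the GC trend removed. NARS2 stood at 24.4, 28.3 and 27.1 CPM in EV, 16.0, 12 and 18.4 in NICD1, 21.6, 25.2 and 19.7 in NICD2, 16.6, 19.1 and 18.0 in NICD3, and 8.59, 13.9 and 9.63 in NICD4. Unlike WARS2 it kept its NICD1 and NICD4 calls with the trend removed, its changes of -0.80, -0.27 (not called), -0.57 and -1.34 becoming -0.30, 0.05, -0.17 and -0.71.

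**Figure D4:**
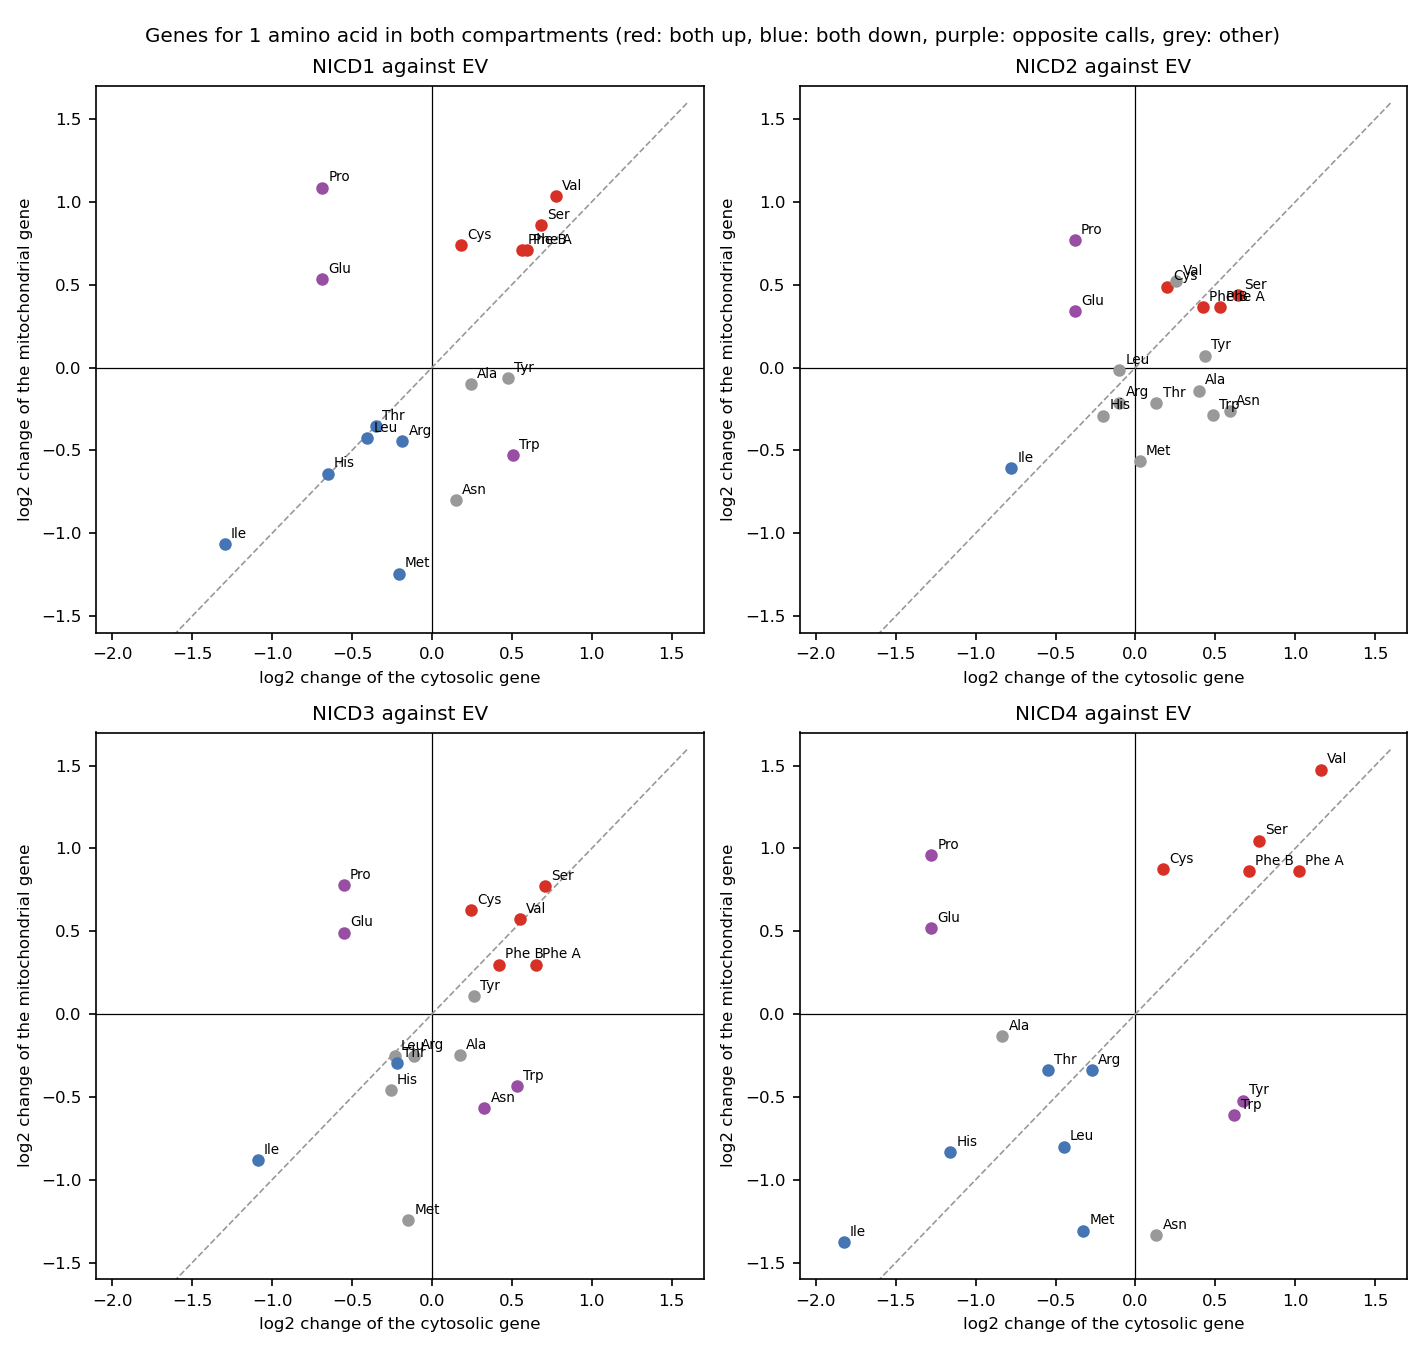
Log2 change against EV of the cytosolic gene (x axis) and the mitochondrial gene (y axis) for the pairs named by amino acid (Phe A and Phe B are FARSA and FARSB with FARS2), in 1 panel per NICD group, with the dashed line marking equal change. Ile lay at the lower left in every panel, and Pro and Glu, which share EPRS1, at the upper left.

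MARS2, the mitochondrial methionine enzyme, was the least abundant member per kilobase. It stood at 5.53, 10.0 and 8.43 CPM in EV, 3.58, 2.39 and 3.99 in NICD1, 4.01, 7.88 and 4.54 in NICD2, 3.02, 3.36 and 3.36 in NICD3, and 3.17, 2.94 and 3.21 in NICD4. NICD2 overlapped EV and the other groups did not. The changes were -1.24 ± 0.26 (adjusted p = 0.00051, limma), -0.56 ± 0.26 (0.072), -1.25 ± 0.26 (0.0006) and -1.31 ± 0.26 (0.00027), and -1.01, -0.38, -1.05 and -1.02 with the GC trend removed. MARS1, the cytosolic partner, changed little, by -0.21, 0.03, -0.15 and -0.33, of which the NICD1 and NICD4 values were called and that in NICD1 was lost without NICD1 replicate 2.

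The remaining mitochondrial genes were mixed. LARS2 (leucine) changed by -0.43, -0.02, -0.26 and -0.80, called in NICD1 and NICD4. The NICD1 call was lost with the GC trend removed, and also without EV replicate 2 or NICD1 replicate 2. TARS2 (threonine) fell in NICD1, NICD3 and NICD4 by 0.35, 0.30 and 0.34. RARS2 (arginine) fell by 0.44, 0.21, 0.25 and 0.34, its NICD2 call lost without NICD2 replicate 3, and had changes of 0.18, 0.16, 0.24 and 0.42 with the GC trend removed. TARS2, by contrast, had -0.51, -0.25, -0.43 and -0.59 there, called in all 4.

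**Figure D5:**
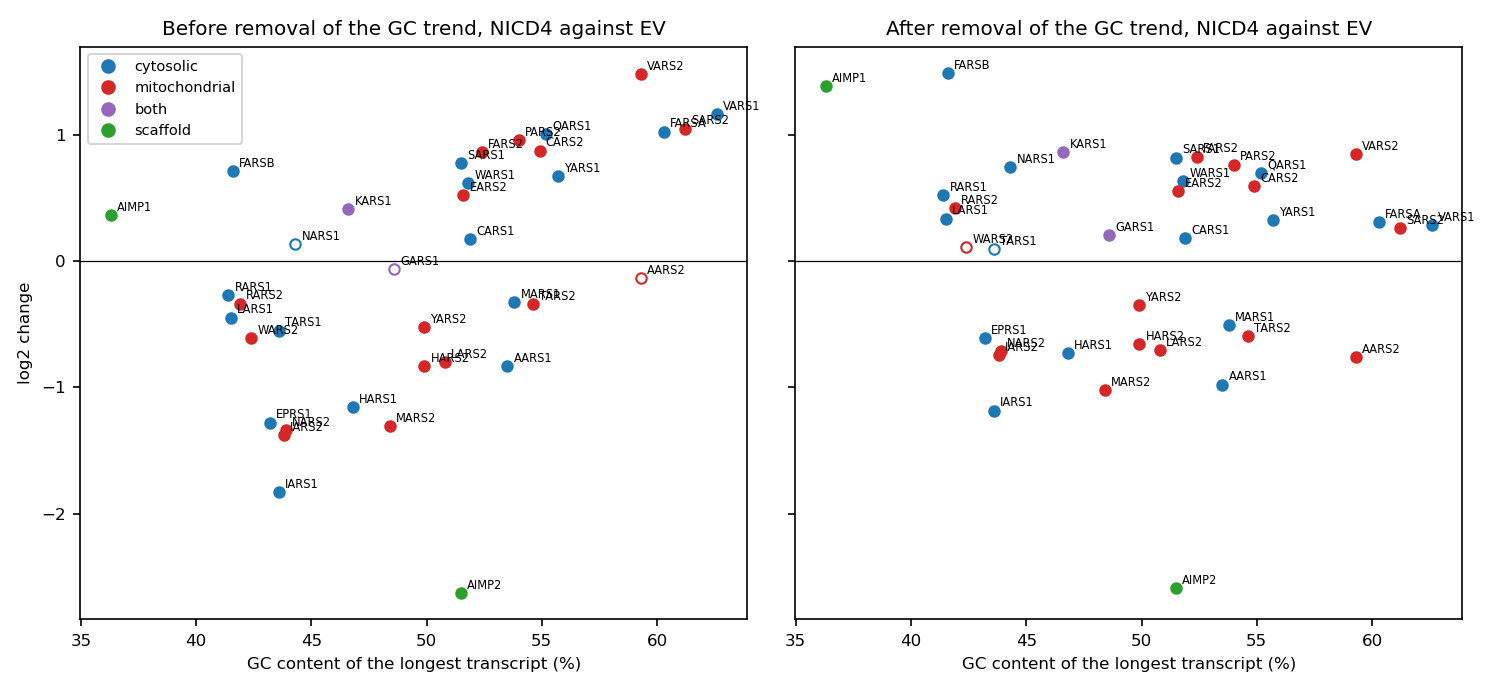
Log2 change in NICD4 against EV (y axis) over the GC content in percent of the longest transcript (x axis) for the genes labelled, before (left) and after (right) the GC trend was removed from each library, filled where called. Before removal most genes near 42% lay below 0 and most of those near 60% above it, and AIMP2, IARS1 and AARS1 lay low in both panels.

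Differences between the 4 receptors, which do not use EV, were called by the F-test for 26 of the 39 genes (66.7%), beside 67.9% of all tested genes, and for 26 with the GC trend removed. Of these 26, NICD4 was lowest and NICD2 highest in 15, among them AARS1, AIMP2, HARS1, IARS1 and IARS2, and NICD2 was lowest and NICD4 highest in 6: FARSA, QARS1, VARS1, CARS2, SARS2 and VARS2. The 6 all have GC contents of at least 54.9%. That NICD1 and NICD3 lay between NICD2 and NICD4 follows from how these sets were chosen. How many of all tested genes had either order was not counted, so neither order is shown to be particular to these genes. Of all tested genes, 63.5% differed between NICD4 and NICD2, the largest share of any pair of NICD lines.

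The pairs of NICD lines differed in how many genes were called. NICD4 differed from NICD2 in 28 genes (71.8%, beside 63.5% of all tested genes), with 9 higher and 19 lower in NICD4, and from NICD3 in 23 (59.0%, beside 49.0%), with 8 higher and 15 lower. NICD2 differed from NICD1 in 19 (48.7%, beside 37.2%), with 12 higher and 7 lower in NICD2. These were 30.8% and 17.9% of the 39, beside 18.6% and 18.6% of all tested genes. With the GC trend removed, 8 were higher (20.5%) and 3 lower (7.69%) in NICD2, beside 15.1% and 16.1%. In that fit NICD4 had 9 higher and 17 lower than NICD2, and 4 higher and 11 lower than NICD3. The splits for these NICD4 pairs are given without shares by direction for all tested genes. NICD4 differed from NICD1 in 7 (17.9%, beside 27.2%), namely AARS1, EPRS1, IARS1, NARS2, YARS2 and AIMP2, which were lower, and FARSA, which was higher. NICD3 differed from NICD1 in 1 (2.56%, beside 6.72%), the mitochondrial enzyme FARS2 (-0.41 ± 0.10, adjusted p = 0.026, limma), and from NICD2 in 1 (2.56%, beside 15.0%), TARS1. A p that missed the threshold does not show that 2 lines were alike.

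Partners of the synthetases outside the rule moved in both directions. Of 12 tested relatives, 3 rose and 6 fell in NICD1, 3 and 0 in NICD2, 3 and 6 in NICD3, and 1 and 7 in NICD4. The shares up of 25.0%, 25.0%, 25.0% and 8.33% were below the 35.6%, 29.6%, 33.0% and 37.3% of all tested genes. The shares down were 50%, 0%, 50% and 58.3%, beside 39.8%, 30.0%, 36.2% and 43.6%, so that only NICD2 had fewer falls than the background. With the GC trend removed 10, 8, 6 and 9 were up and 0, 0, 0 and 1 down. In that fit 83.3%, 66.7%, 50% and 75% were thus up, above the 38.3% to 41.6% of all tested genes. GATB and GATC, subunits of the amidotransferase that makes glutamine-charged tRNA in mitochondria, rose by 0.33 and 0.51 in NICD1 and by 0.49 and 0.27 in NICD3, although total-read scaling gave -0.12 for GATB in NICD1 and -0.15 for GATC in NICD3. QRSL1, the catalytic subunit, changed by -0.37 and -0.43 in the same lines, and by 0.34 and 0.14 with the GC trend removed. PPA1, the cytosolic pyrophosphatase that clears the product of charging, changed by -0.53, -0.08, -0.45 and -0.73, and by 0.22, 0.36, 0.16 and 0.17 with the trend removed.

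Among 11 tested genes of tRNA maturation and delivery, 5 rose and 5 fell in NICD1, NICD2 and NICD3, and 3 and 5 in NICD4. As shares, 45.5% rose in NICD1 to NICD3 and 27.3% in NICD4, beside 35.6%, 29.6%, 33.0% and 37.3% of all tested genes, and with the GC trend removed 5 were up and 2 down, 4 and 1, 5 and 1, and 4 and 2. TUFM, the mitochondrial elongation factor that carries charged tRNA to the ribosome, rose by 0.90, 0.70, 0.86 and 0.93 and remained up in all 4 lines with the GC trend removed (0.56, 0.59, 0.59 and 0.44). XPOT, which exports tRNA from the nucleus, fell by 1.02, 0.61, 1.15 and 1.54, and by 0.33, 0.59 and 0.71 in NICD1, NICD3 and NICD4 with the trend removed.

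Shared bases limit single genes. The deposited spans of 25 of the 39 genes overlap another feature of the table, and 11 overlap a protein-coding gene of at least 10 CPM. Beyond those given above, KARS1 rose while TERF2IP, a gene of a telomere protein that shares 858 bases with it, fell by 0.82, 0.81 and 0.74 in NICD1, NICD3 and NICD4, and WARS1 rose with WDR25, which rose by 1.03, 0.46, 0.76 and 1.5 and shares 388 bases with it. MARS1 shares 982 bases with DDIT3, an ATF4-linked stress gene that rose by 0.36, 0.68 and 0.55 in NICD1, NICD2 and NICD4 (-0.09, 0.40 and 0.01 under total-read scaling). Without NICD4 replicate 1, whose labels disagree, NICD4 against EV kept 8 cytosolic enzymes up and 9 down and 6 mitochondrial enzymes up and 9 down.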

How the data were processed

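RNA of 15 libraries was measured with a poly(A) kit, and reads were aligned with TopHat2 2.0.6 to GRCh37 and counted with HTSeq, per the submitters' processing notes. Settings, annotation release and strandedness are not given in the sources used here. The deposited table holds log2 values of counts plus 1. All values came back as whole counts within 0.001, and 0 columns were left unmapped. Groups follow the sample titles.

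Genes with at least 10 reads at median depth in 3 or more libraries, and 15 in all, were kept, 15122 of 31352. Counts were scaled by TMM, 1 was added (0.0545 CPM), and log2 values were fitted in R 4.3.3 with limma 3.58.1 and statmod 1.5.0 (trended, robust), all 15 libraries together, without a replicate block. p-values were adjusted over all tested genes by the Benjamini-Hochberg method. Because the deposited unit is log2, limma was used in place of a count model. The script was tested on simulated data. GC content came from the longest GENCODE 29 transcript (known for 97.5% of tested genes), and its trend was removed per library by loess with a span of 0.3. Alternatives were median-of-ratios and total-read scaling, no filter, another added constant, voom, a non-robust fit, the GC correction, a replicate block, only the groups compared, and each library left out. Replicate numbers were checked and did not pair the libraries throughout.

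Any of the 39 genes could be named, except that some genes are not reported here and stand only in counts and sums. Values per library are given for those called with the largest changes, those whose direction differed between NICD groups and pairs called in opposite directions. From the other lists up to 4 examples are named, and genes that overlap a member were named after their values were seen. Further genes with values per library were also chosen after their values were seen. The members and lists were chosen with earlier results of these data known. Counting error covers only part of the spread, which set the tests.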

Additional observations from a re-analysis of the deposited data

Results flagged for a closer look

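AARS1, the cytosolic alanine enzyme, was flagged because its change in NICD4 differed from that in other lines by a direct test. NICD4 minus NICD1 was -1.08 ± 0.09 (adjusted p = 1.1e-06, limma) and NICD4 minus NICD2 was -1.23 ± 0.09 (adjusted p = 1.8e-07, limma), with calls in opposite directions against EV in both cases. All 3 NICD4 libraries were below all 3 libraries of either line. The call against EV in NICD1 was lost without the filter on low counts and with the GC trend removed, and total-read scaling turned its value to -0.22. No explanation was tested.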

How the results depend on the processing

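Over 7 other settings (median-of-ratios scaling, no filter, another added constant, voom weights, a non-robust prior, the replicate block, only the groups compared), 1075 of 1092 changes of the 39 genes kept their direction and side of the threshold, 9 lost the call, 8 gained one and 0 turned. With each library left out in turn, 2272 of 2340 kept both, 61 lost the call, 7 gained one and 0 turned. Replicate numbers did not pair the libraries throughout: 13 of 30 same-numbered pairs had a correlation of deviations over 0.1 (median 0.05), against 19 of 60 others (median -0.04). Among EV, NICD2, NICD3 and NICD4, however, same-numbered pairs of replicates 1 and 2 all correlated positively, at 0.14 to 0.36. Those of replicate 3 lay at -0.20 to 0.05, and same-numbered pairs with NICD1 at -0.43 to 0.24. A structure shared by part of the libraries is thus not excluded. The replicate block gave 9 cytosolic rises in NICD2 in place of 8 and 27 genes by the F-test in place of 26, and no other count moved.

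The GC and total-read settings moved most. With the GC trend removed, alone or with the replicate block, cytosolic falls numbered 2 in NICD1, 1 in NICD2 and 2 in NICD3, and with the block mitochondrial falls in NICD1 numbered 5. Turned changes, in both fits, included LARS1 0.24, 0.28, 0.28 and 0.34 and RARS1 0.47, 0.29, 0.41 and 0.52 in NICD1 to NICD4, RARS2 0.18, 0.16, 0.24 and 0.42, TARS1 0.16, 0.19 and 0.09 and WARS2 0.06, 0.03 and 0.11 in NICD1, NICD3 and NICD4, and GARS1 0.21 in NICD4.

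Under total-read scaling, cytosolic rises numbered 3, 4, 3 and 5, cytosolic falls 5 in NICD2 and 9 in NICD3, mitochondrial rises 2 in NICD2 and 3 in NICD3, and mitochondrial falls 9 in NICD2. Turned changes included CARS1 -0.27, -0.08, -0.17 and -0.37, GARS1 -0.35, -0.06 and -0.27 in NICD1 to NICD3, KARS1 -0.06, -0.10 and -0.13 in NICD1, NICD3 and NICD4, AARS1 -0.22 in NICD1, NARS1 -0.09, YARS1 -0.15 and FARS2 -0.12 in NICD3, and NARS1 -0.41, EARS2 -0.02 and AIMP1 -0.18 in NICD4. The cause was not tested.

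Leaving out 1 library gave 1 to 3 cytosolic falls and 1 to 4 mitochondrial falls in NICD2, the latter 1 without NICD2 replicate 3, and 3 to 5 cytosolic falls in NICD3, 3 of them without EV replicate 2. With 3 libraries a group, the SE was 0.09 for PARS2 and 0.26 for MARS2, at similar levels in EV, and 0.39 for AIMP2, more abundant in EV. In NICD4 the means were 15.5 CPM for PARS2, 3.10 for MARS2 and 5.92 for AIMP2. The parts of level and of spread between libraries in these SE were thus not separated.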
